A study of Mus musculus with 42 samples.

Results

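Heat shock proteins and cold-inducible RNA-binding proteins were followed over the day in the liver of mice on 2 diets. The set held 10 genes of the 54532 in the read count table, taken by gene name: the chaperone genes Hspa1a, Hspa1b, Hspa8, Hsph1, Hsp90aa1, Dnajb1, Hspb1 and Hspd1, and the cold-inducible genes Cirbp and Rbm3. Female C57BL/6NHsd mice (C57BL/6 in the labels) aged 3 weeks were fed AIN93G, in which soybean oil gave 16% of the energy, or a high-fat diet (HFD), in which it gave 45%, for 3 weeks, and tissue was taken every 4 h from Zeitgeber time (ZT) 0, lights on, to ZT 24, with lights off at ZT 12. By the authors' account collection ran over more than 1 day, and the labels give no day. Mice were group-housed and not fasted, each library came from 1 mouse, and each diet had 3 libraries at each of the 7 times. Poly(A) RNA was sequenced, and values are given as CPM, counts scaled to a library total of 1000000.

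All 42 libraries were labelled as liver, and the label was checked against the hepatocyte gene Alb (albumin). Alb was at 66434 to 111995 CPM in 32 libraries and at 18.7 to 81.0 CPM in the other 10, in which Adipoq, the adipocyte hormone adiponectin, was at 1455 to 2984 CPM. The 10 hepatocyte markers summed to 109750 to 157014 CPM in the 32 libraries and to 681 to 4041 CPM in the 10. The 10 were all 6 AIN93G libraries at ZT 16 and ZT 20 and 2 of the 3 of each diet at ZT 24. The results below rest on the 32 liver libraries, which held 14592481 to 19815356 counts each, so the diets were compared at ZT 0 to ZT 12 and a whole day was covered on the HFD alone. Time labels were checked against clock genes. Arntl (Bmal1) was at 39.9 to 49.1 CPM at ZT 0 and at 1.19 to 2.38 CPM at ZT 8. At ZT 12, replicates 2 and 3 on AIN93G and replicate 3 on the HFD had Arntl over 30 CPM while the other 3 libraries were near the ZT 8 level, and the 2 liver libraries at ZT 24 were at 0.745 and 1.11 CPM, unlike ZT 0. The labels put AIN93G replicate 2 and HFD replicate 3 at ZT 12 in the light phase and the other 4 libraries of that time, like all libraries at ZT 24, in the dark phase. The fits over several times were also made without the 3 libraries with high Arntl, a choice made after the values were seen, but the diets at ZT 12 alone were not compared without them.

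The heat shock response is the rise in chaperone genes that follows heat and other protein damage, driven by the transcription factor HSF1 at heat shock elements, inverted repeats of the letters GAA. HSP70 proteins bind unfolded chains and cycle on ATP, J proteins of the HSP40 class deliver clients and trigger the cycle, HSP110 proteins exchange the nucleotide, and HSP90 finishes the folding of kinases and receptors. CIRBP and RBM3 are RNA-binding proteins whose messages rise with mild cooling and are known to follow the daily body temperature rhythm in mouse liver.

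Promoter sequence from RefSeq (GRCm38.p6, which is mm10) was at hand for 7 of the 10 members, as the 250 bases before the most upstream start listed there, and is shown for the 4 with a heat shock element and for Cirbp. Hspa1a and Hspa1b lie next to each other on chromosome 17 and code for inducible HSP70. Their windows, at chr17:34972157-34972406 and chr17:34959239-34959488 on the minus strand, differ at 3 of 250 positions. Hsph1 (chr5:149636337-149636586, minus strand) codes for an HSP110 exchange factor and Hspb1 (chr5:135887669-135887918, plus strand) for the small heat shock protein HSP25. Capitals mark GAANNTTC or TTCNNGAA, read on both strands, in the 4 chaperone promoters. The listed start is not always that of the count table: the Cirbp window lies within the gene as counted (80165985 to 80172786), and the Hsph1 window overlaps its gene (149614287 to 149636376).
Hspa1a: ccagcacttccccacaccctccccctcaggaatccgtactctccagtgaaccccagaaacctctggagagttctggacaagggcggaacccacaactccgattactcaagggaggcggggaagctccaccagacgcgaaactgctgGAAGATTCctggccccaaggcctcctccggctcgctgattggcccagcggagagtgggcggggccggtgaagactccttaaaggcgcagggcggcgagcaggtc
Hspa1b: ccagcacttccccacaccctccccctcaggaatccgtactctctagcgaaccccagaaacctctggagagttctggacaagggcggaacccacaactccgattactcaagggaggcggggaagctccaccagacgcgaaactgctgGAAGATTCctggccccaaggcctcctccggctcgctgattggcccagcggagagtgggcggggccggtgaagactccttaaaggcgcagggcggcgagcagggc
Hsph1: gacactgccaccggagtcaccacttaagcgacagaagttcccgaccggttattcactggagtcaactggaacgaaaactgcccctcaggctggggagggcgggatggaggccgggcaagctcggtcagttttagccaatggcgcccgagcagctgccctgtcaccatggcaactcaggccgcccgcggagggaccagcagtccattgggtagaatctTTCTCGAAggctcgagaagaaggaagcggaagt
Hspb1: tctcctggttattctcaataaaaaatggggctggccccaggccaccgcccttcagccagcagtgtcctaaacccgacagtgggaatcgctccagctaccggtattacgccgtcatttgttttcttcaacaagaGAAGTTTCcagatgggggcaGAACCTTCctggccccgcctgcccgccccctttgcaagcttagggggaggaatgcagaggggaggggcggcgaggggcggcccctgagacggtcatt
The Cirbp window (chr10:80167589-80167838, plus strand) has no such match. Capitals in it mark TCCCCGCC, the letters known as the mild cold response element of Cirbp.
Cirbp: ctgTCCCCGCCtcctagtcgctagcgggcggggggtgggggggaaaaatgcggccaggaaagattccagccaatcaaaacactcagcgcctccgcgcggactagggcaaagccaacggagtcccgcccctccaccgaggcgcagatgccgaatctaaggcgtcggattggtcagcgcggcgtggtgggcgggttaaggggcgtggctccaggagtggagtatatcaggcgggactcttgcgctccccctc
The heat shock element letters were in 4 of the 7 member windows and in 13% of 27025 promoters of the same length, 1 for each gene. Hspa1a and Hspa1b have the match 104 bases before the start, Hsph1 has it at 33 bases, and Hspb1 has matches at 97 and 117 bases. The mild cold letters were in the Cirbp, Hspa1a and Hspa1b windows and in 4.70% of all promoters. CCAAT was in 5 member windows against 34.5% of all promoters, and GGGCGG in all 7 against 33%. TATAAA was in no member window against 13%, and CACGTG, the E box letters read by clock factors, was in Hspd1 alone, 80 bases before its start, against 6.04%.

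The remaining members are the constitutive HSP70 Hspa8 (HSC70; chromosome 9, 40800984 to 40810087), the J protein Dnajb1 (HSP40; chromosome 8, 83608193 to 83612653), the stress-inducible cytosolic HSP90 Hsp90aa1 (chromosome 12, 110690605 to 110702728), the mitochondrial chaperonin Hspd1 (HSP60; chromosome 1, 55077835 to 55088243) and Rbm3 (chromosome X, 8138975 to 8145880). Levels were compared between genes per kilobase of the gene length in the table. The median level over the liver libraries was 315 CPM per kb for Hspa8, 199 for Hspd1 and 82.3 for Hsp90aa1. Hsph1 was at 15.0 and Hspb1 at 14.4 CPM per kb, and Dnajb1 at 9.59. Hspa1b, Rbm3 and Cirbp were at 5.92, 5.70 and 5.66 CPM per kb, and Hspa1a at 0.289. Over liver libraries Hspd1 ranged 1.58-fold from 429 to 679 CPM, Rbm3 2.87-fold and Hspa8 3.00-fold. Hsp90aa1 ranged 115-fold, from 5.42 CPM in 1 library to 624 CPM, with the other 31 at 119 CPM or more. Hspb1 ranged 15.5-fold from 4.13 to 64.0 CPM and Hspa1b 39-fold from 2.29 to 89.2 CPM. Hspa1a had 0 to 117 counts a library and a mean of 23.5, under the minimum mean of 25 in every test but that of the diets at ZT 12. Of the stretches of 100 bases in the Hspa1a transcript, 47.1% also occur in Hspa1b, so how reads were divided between the pair is uncertain and their values are not independent.

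**Figure D1:**
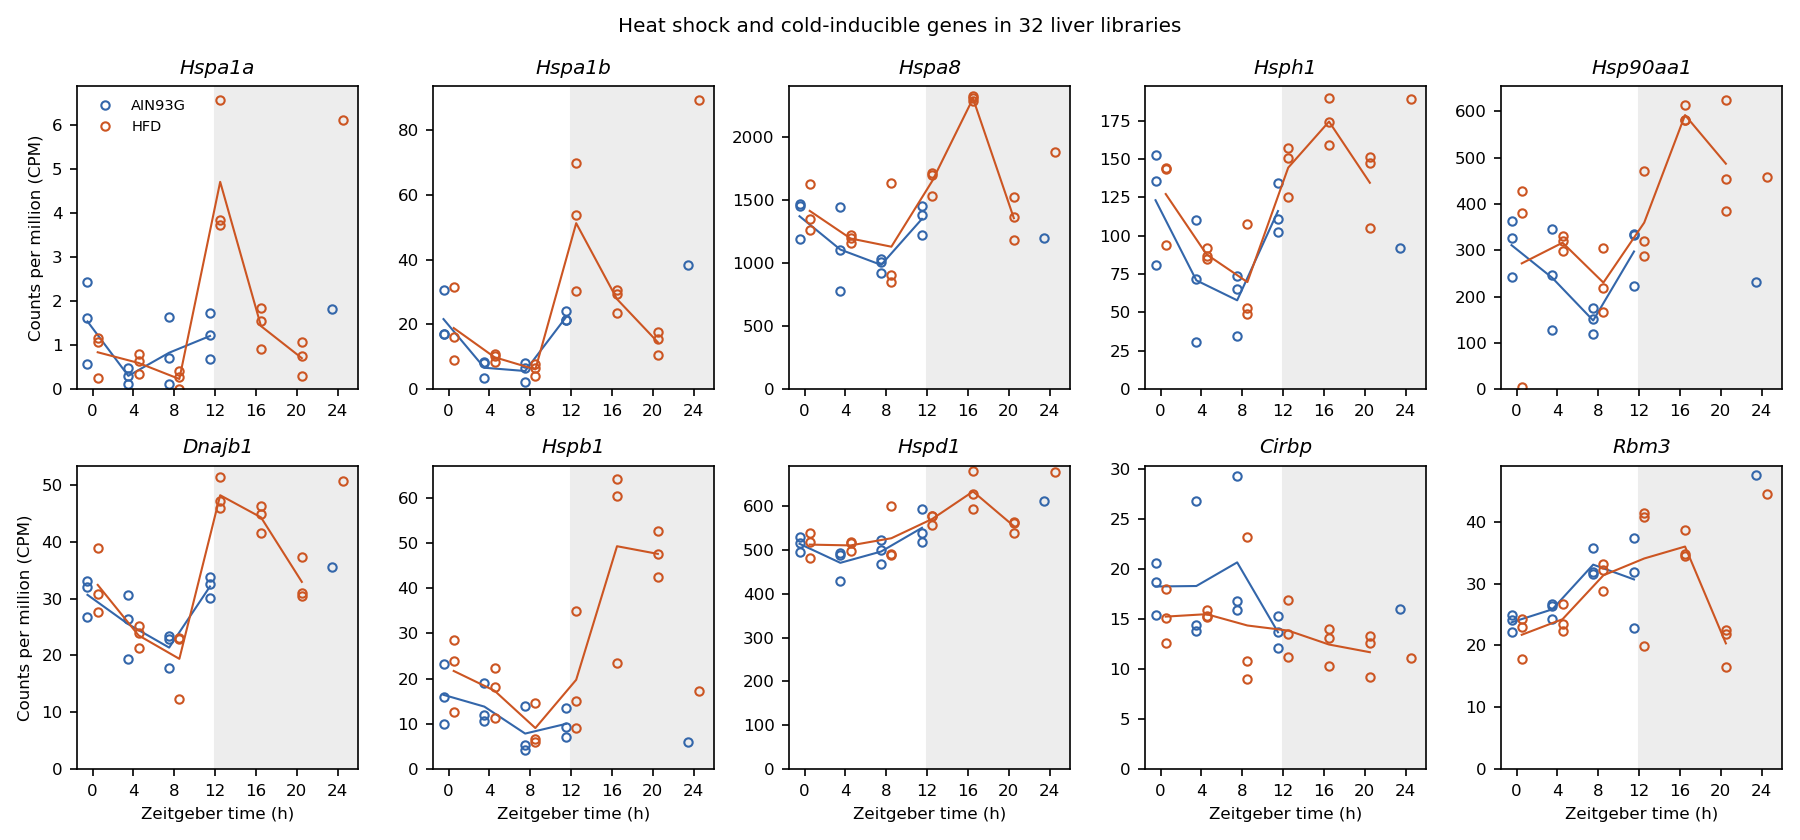
CPM of the 10 genes in each of the 32 liver libraries (circles) against Zeitgeber time in hours, AIN93G in blue and HFD in orange set slightly apart, with lines through the group means from ZT 0 to ZT 20 and the dark phase shaded. Hspa1b, Hspa8, Hsph1 and Dnajb1 are low at ZT 4 and ZT 8 and high at ZT 12 or ZT 16, Hspb1 is high at ZT 16 and ZT 20, and 1 circle of Hsp90aa1 at ZT 0 on the HFD lies at 5.42 CPM.

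One library stood apart for a member. Hsp90aa1 was at 5.42 CPM, 82 counts, in HFD ZT 0 replicate 1 and at 119 CPM or more in the other 31 liver libraries. The search for low genes used a minimum level of 3 CPM. In that library 15 genes lay more than 3-fold under their lowest value elsewhere in liver, against at most 3 genes in any other library. They were the ribosomal RNA genes mt-Rnr1 and mt-Rnr2 and the 18S-related CT010467.1, together with Gm23935, Gm26917, Lars2, Rpl12, Exosc5, Rrp1, Rrp1b, Rrp7a, Rrp8, Rrp12, Rrp15 and Hsp90aa1. The ribosomal RNA gene mt-Rnr2 was at 6.94 CPM there against 315 to 1207 CPM, and Rpl12, a ribosomal protein gene, at 5.49 against 73.0 to 174 CPM. The part of these genes in the Hsp90aa1 value was not tested, and Hsp90aa1 is given below with and without the library. The other 9 members were within the range of the other 31 liver libraries. Hspa1a at 0.264 CPM and Hspa1b at 9.06 CPM were the lowest of the 6 libraries at ZT 0, and Hspd1 at 481 CPM was the lowest on the HFD.

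**Figure D2:**
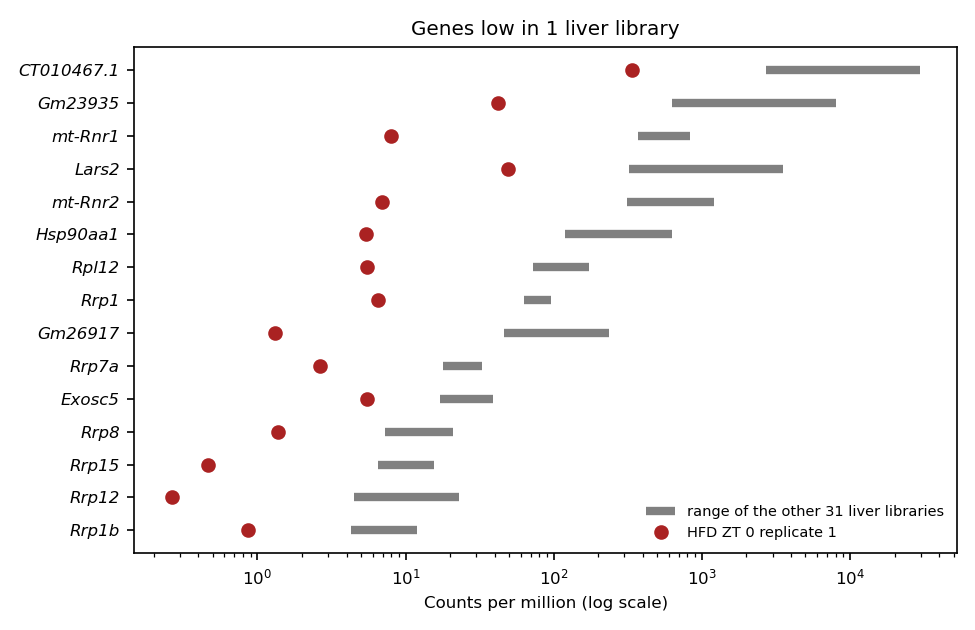
CPM, on a log scale, of the 15 genes that lie more than 3-fold under their lowest other liver value in HFD ZT 0 replicate 1 (red points), with the range of the other 31 liver libraries (grey bars). Hsp90aa1 is at 5.42 CPM against 119 to 624 CPM.

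On the HFD liver was covered through day and night. Hspa1b, Hspa8, Hsph1, Dnajb1 and Hspb1 were higher there at ZT 16 and ZT 20 than at ZT 4 and ZT 8. The mean of ZT 16 and ZT 20, called dark below, was set against the mean of ZT 4 and ZT 8, called light. Each side had 6 libraries, and the test was edgeR's quasi-likelihood test with Benjamini-Hochberg adjustment over all genes. ZT 0, at lights on, was outside this contrast. Mean levels at ZT 0 were 18.9 CPM for Hspa1b and 1413 CPM for Hspa8, above 14.5 and 1355 CPM at ZT 20. Hsph1, Dnajb1 and Hspb1 were at 127, 32.4 and 21.7 CPM, under 135, 32.9 and 47.5 CPM at ZT 20. Of the 9 members tested, 5 were higher in the dark phase and 0 lower, against 2.76% of 12008 genes higher and 2.96% lower. At an unadjusted p under 0.05 the counts of members were 6 and 0, with 2524 of 12008 genes in either direction, and in DESeq2 they were 6 and 0, with 1078 of 12003 genes. The median change of the 9 was 0.86 on the log2 scale, against 0.01 over all genes. The ranges at ZT 16 and ZT 20 did not overlap those at ZT 4 and ZT 8 for 3 of the 10 members, Dnajb1, Hspb1 and Hsp90aa1. This was so, in the direction of the dark phase, for 1.1% of all genes tested. Hepatocyte markers summed to 111982 to 144844 CPM in the dark libraries and 109750 to 139227 CPM in the light ones, adipocyte markers to 17.3 to 42.5 and 35.9 to 58.6 CPM, erythroid markers to 82.9 to 144 and 83.5 to 206 CPM, and muscle markers to 2.12 to 57.2 and 2.08 to 86.9 CPM. The medians of other liver cells were higher in the dark, with overlapping ranges, at 382 against 348 CPM for Kupffer cells, 190 against 173 CPM for sinusoidal endothelium, 302 against 276 CPM for stellate cells and fibroblasts and 46.4 against 39.7 CPM for cholangiocytes. The part of these markers in the differences was not tested. In whole tissue, fewer cells of a type and less RNA per cell cannot be told apart.

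Hspb1 had the largest difference among the members. Its level was 23.5, 64.0 and 60.3 CPM at ZT 16 and 47.6, 52.7 and 42.4 CPM at ZT 20, against 18.2, 11.4 and 22.4 CPM at ZT 4 and 14.6, 6.57 and 5.99 CPM at ZT 8. All 6 dark libraries lay above all 6 light libraries, the closest being 23.5 and 22.4 CPM. The log2 change was 1.97 ± 0.34 (SE), 3.92-fold, with an adjusted p of 0.0033. Its level was 9.15 to 35 CPM at ZT 12 and 12.6 to 28.5 CPM at ZT 0, ranges that both reached above the lowest library at ZT 16.

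Hspa1b, the inducible HSP70, had its highest time earlier. It was at 30.2, 69.8 and 53.6 CPM at ZT 12, 30.7, 23.4 and 29.3 CPM at ZT 16 and 10.4, 17.6 and 15.5 CPM at ZT 20. The light-phase libraries were at 8.30, 11 and 10.4 CPM at ZT 4 and 7.91, 6.51 and 3.94 CPM at ZT 8. ZT 16 lay above the light phase in all 3 libraries, whereas ZT 20 overlapped it. The dark phase was higher by 1.39 ± 0.27 (log2, SE; 2.62-fold), with an adjusted p of 0.0069. Hspa1a was at 0 to 0.807 CPM in the light phase and 0.293 to 1.85 CPM in the dark, with 3.74, 6.57 and 3.84 CPM at ZT 12. With every gene that had a count kept in the test, its dark-phase change was 1.44 ± 0.42 (log2, SE), adjusted p = 0.018 in edgeR's test, in which 1262 genes passed in place of 687.

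Dnajb1, which delivers clients to HSP70, was at 46.3, 45.0 and 41.6 CPM at ZT 16 and 30.5, 37.4 and 30.9 CPM at ZT 20, against 12.3 to 25.2 CPM over the 6 light libraries. The groups did not overlap, and the change was 0.86 ± 0.13 (log2, SE; 1.82-fold; adjusted p = 0.0017). Hsph1, the exchange factor, was at 105 to 190 CPM in the dark with a median of 155, and at 48.8 to 108 CPM in the light with a median of 85.7. The 2 ranges overlapped by 1 library on each side, and the change was 0.98 ± 0.18 (log2, SE; adjusted p = 0.0053). Hspa8, the constitutive HSP70, was at 2324, 2304 and 2280 CPM at ZT 16, above all other libraries, but at 1522, 1362 and 1180 CPM at ZT 20, within its light range of 849 to 1630 CPM. Its change was 0.62 ± 0.15 (log2, SE; adjusted p = 0.021), and the call was lost without HFD ZT 8 replicate 3 (adjusted p = 0.052) or HFD ZT 20 replicate 1 (adjusted p = 0.060).

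Hsp90aa1 was at 581, 615 and 581 CPM at ZT 16 and 624, 453 and 384 CPM at ZT 20, and at 320, 298, 331, 306, 166 and 219 CPM over the light libraries. Every dark library lay above every light one. The change was 1.01 ± 0.53 (log2, SE; 2.02-fold) with an adjusted p of 0.28, and 1.01 ± 0.16 with an adjusted p of 0.0025 without HFD ZT 0 replicate 1, a library outside the contrast that enters the estimate of the spread. Hspd1 was at 539 to 679 CPM in the dark and 488 to 601 CPM in the light (log2 change 0.22 ± 0.08, adjusted p = 0.12 in edgeR). Cirbp was at 9.15 to 14 CPM in the dark and 8.98 to 23.2 CPM in the light (−0.27 ± 0.19, adjusted p = 0.44). Rbm3 did not pass (log2 change 0.00, with a 95% interval from −0.30 to 0.30), with a level of 34.5 to 38.7 CPM at ZT 16 and of 16.6 to 22.6 CPM at ZT 20.

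**Figure D3:**
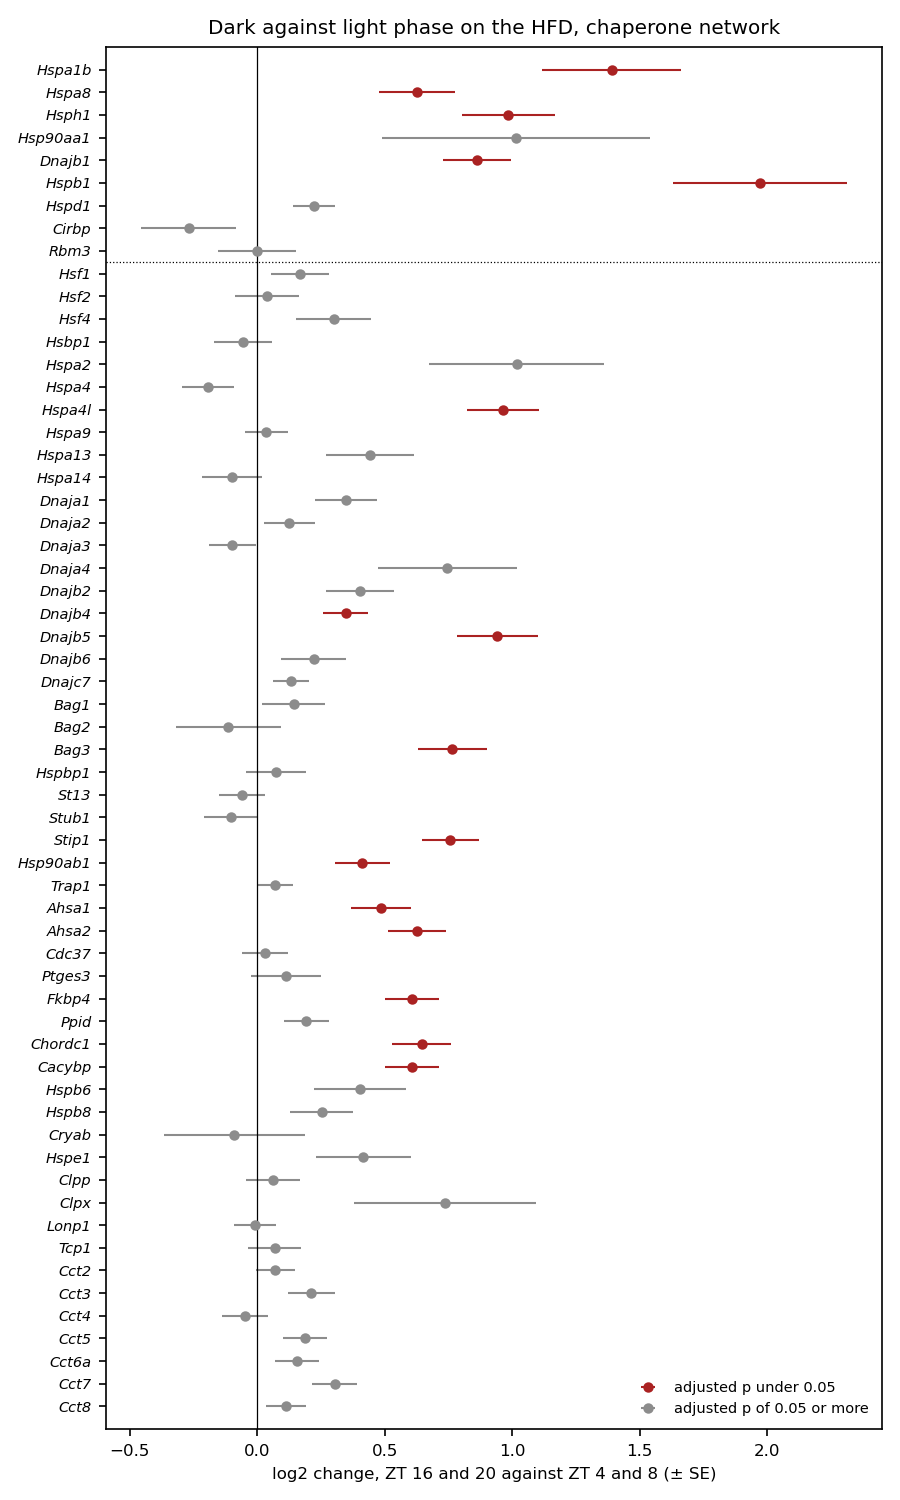
Log2 change (± SE) of ZT 16 and ZT 20 against ZT 4 and ZT 8 on the HFD for the members tested (above the dotted line) and for the chaperone network genes tested (below it), with adjusted p under 0.05 in red. All red points lie on the side of the dark phase, from Dnajb4 at 0.35 to Hspb1 at 1.97.

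Other chaperone genes, from lists of the network around the members, moved the same way where they passed the test. Of 51 tested, 11 were higher in the dark and 0 lower in edgeR's test, against 2.76% and 2.96% of 12008 genes. These shares also stand beside the lists below, and the median over the 51 was 0.19 (log2), against 0.01 over all genes. The counts were 22 and 0 at an unadjusted p under 0.05, and 13 and 0 in DESeq2, against the 2524 of 12008 and 1078 of 12003 genes given above. Among HSP90 proteins and cofactors 6 of 10 were higher: Hsp90ab1, the constitutive HSP90 (0.41 ± 0.11), the ATPase activators Ahsa1 (0.49 ± 0.12) and Ahsa2 (0.62 ± 0.11), the immunophilin Fkbp4 (0.60 ± 0.11), Chordc1 (0.64 ± 0.12) and Cacybp (0.61 ± 0.11). Among HSP70 cofactors, Stip1, which links HSP70 to HSP90 (0.76 ± 0.11), and Bag3 (0.76 ± 0.13) were higher of 7 tested. Of the HSP70 and HSP110 relatives Hspa4l was higher (0.96 ± 0.14) of 6 tested, and of the J proteins Dnajb4 (0.35 ± 0.09) and Dnajb5 (0.94 ± 0.16) of 9. Of 19 genes for heat shock factors, other small heat shock proteins, mitochondrial cofactors and the chaperonin TRiC, 0 passed edgeR's test, 5 had an unadjusted p under 0.05 and DESeq2 called 1, against those same counts over all genes. Hsf1, the factor of the heat shock response, changed by 0.17 ± 0.11 (log2, SE). Of 11 splicing kinases and SR proteins, Clk3 was higher (0.38 ± 0.10); CLK kinases are known to change activity with body temperature. Of the clock genes, all 4 passed, with Arntl and Per2 higher and Nr1d1 and Dbp lower in the dark.

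A cosine with a period of 24 h was fitted over ZT 0 to ZT 20 on the HFD (18 libraries), and 6 of 9 members passed edgeR's test, against 8.52% of 12008 genes. The median amplitude of the 9 was 0.56 on the log2 scale, against 0.17 over all genes. Rbm3 had its peak at ZT 12.1 ± 0.7 h (SE) with an amplitude of 0.47 ± 0.09. Hspd1 peaked at ZT 14.9 ± 0.9 h with the smallest amplitude called, 0.19 ± 0.04. Hspa8 and Dnajb1 peaked at ZT 15.9 and ZT 16.0 with amplitudes of 0.44 ± 0.10 and 0.56 ± 0.11. Hsph1 peaked at ZT 17.2 ± 0.8 h (0.58 ± 0.12) and Hspb1 at ZT 18.5 ± 0.7 h, with the largest amplitude called, 1.13 ± 0.20, a 4.78-fold peak to trough. The differences between the peak times of genes were not tested. Hspa1b had an amplitude of 0.98 ± 0.27 and a peak at ZT 15.1 (adjusted p = 0.051 in edgeR's test). Hsp90aa1 had an amplitude of 0.59 ± 0.29 (adjusted p = 0.32), and 0.59 ± 0.10 with a peak at ZT 18.3 and an adjusted p of 0.0059 without HFD ZT 0 replicate 1. Cirbp had an amplitude of 0.16 ± 0.10 (adjusted p = 0.55).

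Hspa8 lost its call without HFD ZT 16 replicate 3 (adjusted p = 0.051), and Hspd1 lost its call in 7 of the 18 fits that left out 1 library. Rbm3 kept its call in those 18 fits and lost it in 1 of its 25 alternative fits, over which its amplitude went down to 0.22. Of the network genes, 14 of 51 passed the cosine test, against 8.52% of all genes. Their peaks included Dnajb4 at ZT 14.5, Dnaja1 at ZT 15.2, Bag3 at ZT 15.7, Cacybp at ZT 16.8, Chordc1 at ZT 17.6, Stip1 at ZT 18.1 and Dnajb5 at ZT 19.2, while the median amplitude of the 51 was 0.16 against 0.17 over all genes. With the 6 times as separate groups, 5 of 9 members differed over the day (Hspa1b, adjusted p = 0.0035 in edgeR; Dnajb1, 0.0043; Hspb1, 0.032; Hspa8, 0.038; Hsph1, 0.040), against 2.71% of genes. Hspa8, Hsph1 and Hspb1 lost that call when 1 library was left out in 15, 14 and 9 of the 18 cases. Rbm3 had an adjusted p of 0.055, and of 0.00025 without HFD ZT 12 replicate 3.

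Over the light phase, which both diets covered, Hspa1b, Hsph1, Dnajb1 and Hspb1 were lower at ZT 8 than at ZT 0 while Rbm3 was higher. In 1 fit of both diets (24 libraries, diet as a covariate) 4 of 9 members were lower, against 5.2% of 12009 genes, and 1 higher, against 5.05%. The median change of the 9 was −0.56 (log2), against 0.00 over all genes. AIN93G ZT 8 replicate 2 held skeletal muscle markers at 1105 CPM and adipocyte markers at 156 CPM in sum, and HFD ZT 8 replicate 3 held muscle markers at 86.9 CPM, against 1.18 to 8.33 CPM of muscle markers at ZT 0. The summed markers of other liver cells had lower medians at ZT 8 than at ZT 0. They were 178 CPM (141 to 203) against 211 CPM (191 to 243) for sinusoidal endothelium, 268 CPM (234 to 325) against 320 CPM (279 to 374) for stellate cells and fibroblasts, 348 CPM (325 to 488) against 430 CPM (329 to 853) for Kupffer cells and 39.7 CPM (34.99 to 46.6) against 49.4 CPM (29.1 to 55.3) for cholangiocytes. Each pair of ranges overlapped, and the part of these cells in the differences was not tested. Without the first of these libraries 5 members were called, and without the second 4, with an adjusted p of 0.092 for Hspb1 in edgeR's test. Hspa1b was at 17.1, 30.7 and 17.1 CPM at ZT 0 on AIN93G and 9.06, 31.4 and 16.1 CPM on the HFD. At ZT 8 it was at 7.98, 6.60 and 2.29 CPM on AIN93G and 7.91, 6.51 and 3.94 CPM on the HFD. The 6 libraries at ZT 8 all lay below the 6 at ZT 0, and the level fell by 1.75 on the log2 scale (SE 0.34, 3.35-fold, adjusted p = 0.0026 in edgeR's test).

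Dnajb1 was at 26.8 to 38.8 CPM at ZT 0 and 12.3 to 23.5 CPM at ZT 8, with no overlap (−0.56 ± 0.16; adjusted p = 0.023 in edgeR). That call was lost without AIN93G ZT 0 replicate 2 (adjusted p = 0.052) or HFD ZT 0 replicate 2 (adjusted p = 0.057). Hsph1 was at 80.9 to 153 CPM at ZT 0 and 34.7 to 108 CPM at ZT 8, ranges that overlapped (−0.91 ± 0.24; adjusted p = 0.018). Hspb1 was at 10.05 to 28.5 CPM and 4.13 to 14.6 CPM (−1.10 ± 0.34; adjusted p = 0.043), and lost its call in 9 of the 24 fits that left out 1 library. Rbm3 was at 17.9 to 24.9 CPM at ZT 0 and at 28.8 to 35.8 CPM at ZT 8. Its 2 groups did not overlap and it rose by 0.57 ± 0.15 (log2, SE; 1.48-fold; adjusted p = 0.015), a call kept with each of the 24 libraries left out.

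Hsp90aa1 had a log2 change of −0.60 ± 0.47 (adjusted p = 0.48 in edgeR), and of −0.87 ± 0.19 (adjusted p = 0.0088) without HFD ZT 0 replicate 1. Hspa8 changed by −0.33 ± 0.15 (adjusted p = 0.17), and by −0.50 with an adjusted p of 0.018 without HFD ZT 8 replicate 1, which was at 1630 CPM while the other 5 libraries at ZT 8 were at 849 to 1029 CPM. Hspd1 (0.06 ± 0.07) and Cirbp (0.11 ± 0.21) did not pass. Of the network genes 8 of 51 were lower at ZT 8 and 1 higher, with a median of −0.01, against 5.2% of all genes lower and 5.05% higher. The lower ones included Fkbp4 (−0.47 ± 0.11), Stip1 (−0.58 ± 0.13), Chordc1 (−0.64 ± 0.17), Hspa4l (−0.55 ± 0.16), the endoplasmic reticulum HSP70 Hspa13 (−1.01 ± 0.22) and the mitochondrial unfoldase Clpx (−2.07 ± 0.38), and the higher one was Hsf4 (0.58 ± 0.13). Of 11 genes of the splicing list 3 were lower, Clk3, Tra2a and Tra2b, against the same 5.2%.

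With all 4 times from ZT 0 to ZT 12 as groups, 4 of 9 members differed with time, against 6.66% of genes: Hspa1b (adjusted p = 0.00024 in edgeR), Dnajb1 (0.0025), Hsph1 (0.017) and Rbm3 (0.019). The means of Hspa1b, Hsph1 and Dnajb1 were higher at ZT 12 than at ZT 8 on both diets. On AIN93G, Hspa1b was 5.62 ± 2.97 CPM (SD, n = 3) at ZT 8 and 22.2 ± 1.54 at ZT 12, and Hsph1 was 57.9 ± 20.6 and 116 ± 16.4. Hsph1 lost its call without ZT 12 (adjusted p = 0.057), and Hsp90aa1, at 0.59 with all libraries, had an adjusted p of 0.022 without HFD ZT 0 replicate 1. Without the 3 libraries at ZT 12 with high Arntl the calls of the 4 genes were kept and Hspd1 was added (adjusted p = 0.032). The Rbm3 values at ZT 12 were 37.4 and 22.8 CPM on AIN93G and 19.9 CPM on the HFD in those 3 libraries, and 31.9 CPM on AIN93G and 41.4 and 40.9 CPM on the HFD in the other 3. The part of the labels in this spread was not tested.

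With time as a covariate over ZT 0 to ZT 12 (12 libraries a diet), 0 of 9 members were higher and 0 lower on the HFD in edgeR's test, against 0.0749% of 12009 genes higher and 0.0749% lower. At an unadjusted p under 0.05 the count of members was also 0, and DESeq2 called 0. The median difference of the 9 was 0.16 (log2), against 0.00 over all genes. Hspb1 differed by 0.48 ± 0.24 (log2, SE; 95% interval 0.00 to 0.95), Hspa1b by 0.44 ± 0.23 (−0.02 to 0.90) and Cirbp by −0.28 ± 0.15 (−0.57 to 0.02). The narrowest interval was that of Hspd1, −0.05 to 0.15. The intervals bound the differences and do not show equal levels. Muscle markers summed to 2.03 to 1105 CPM on AIN93G and 1.18 to 86.9 CPM on the HFD over these times, and 0 members were called without AIN93G ZT 8 replicate 2. In the diet by time interaction 0 of 9 members passed edgeR's test, as did 0% of 12009 genes. At an unadjusted p under 0.05 there was 1 member, Dnajb1, and there were 705 genes, and DESeq2 called 0 members and 8 genes. Of 51 network genes 0 differed by diet over ZT 0 to ZT 12 in edgeR or in DESeq2, with 8 at an unadjusted p under 0.05, 4 in each direction, against 945 of 12009 genes.

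At ZT 12, Hspa1b was at 30.2, 69.8 and 53.6 CPM on the HFD and at 21.4, 21.3 and 24.0 CPM on AIN93G. Dnajb1 was at 46, 47.1 and 51.4 CPM against 30.01, 33.8 and 32.5 CPM. Hspa1a was at 3.74, 6.57 and 3.84 CPM against 0.683, 1.72 and 1.23 CPM, and Hspa8 at 1698, 1533 and 1716 CPM against 1382, 1447 and 1218 CPM. For these 4 members the HFD libraries all lay above the AIN93G libraries. Hspa1a had 12, 28 and 19 counts on AIN93G and 65, 117 and 59 on the HFD, so it reached the mean of 25 counts through the HFD libraries alone and its values here are a description. Of the other 9 members 3 had all HFD libraries above and 0 all below, against 5.21% and 4.43% of 11901 genes. The log2 differences were 1.22 ± 0.28 for Hspa1b, 0.60 ± 0.12 for Dnajb1 and 0.30 ± 0.16 for Hspa8. All 3 had an adjusted p of 0.91 in edgeR's test, in which 0% of genes passed. The log2 difference of Hspa1a, as a description only, was 2.0. Of the 9 members other than Hspa1a, 2 had an unadjusted p under 0.05 (Hspa1b and Dnajb1), as had 520 of 11901 genes. DESeq2 called 0 of these 9 and 5 genes in all. With every counted gene kept, edgeR called the interaction for 78 of 29600 genes. Hspa1a was among them (adjusted p = 0.047), but it had only 0 to 14 counts a library at ZT 4 and ZT 8 on the HFD.

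Each diet at ZT 12 held libraries with high and with low Arntl, 2 and 1 on AIN93G and 1 and 2 on the HFD, and the part of this mix in the diet differences was not tested. The single liver libraries at ZT 24, which have no replicate, were at 89.2 CPM of Hspa1b on the HFD and 38.3 CPM on AIN93G, at 6.12 and 1.83 CPM of Hspa1a, and at 50.7 and 35.5 CPM of Dnajb1. At ZT 0, ZT 4 and ZT 8, 0 members passed edgeR's test or DESeq2, against 0.0748%, 0% and 0% of genes in edgeR, and the counts of members at an unadjusted p under 0.05 were 0, 0 and 1 (Hsp90aa1 at ZT 8), against 967 of 12030, 423 of 11952 and 846 of 12037 genes. DESeq2 called 106, 28 and 61 genes at these times, and the differences of Hspa1b were −0.19 ± 0.41, 0.55 ± 0.30 and 0.10 ± 0.45 (log2, SE).

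**Figure D4:**
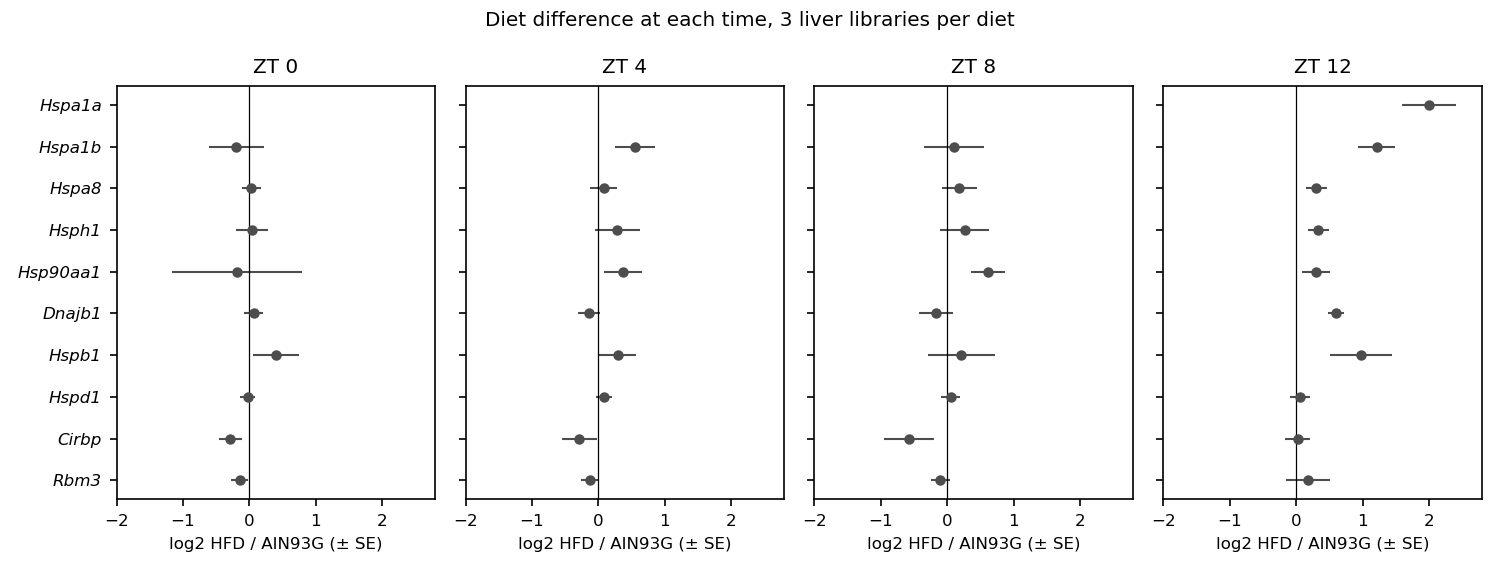
Log2 difference (± SE) between HFD and AIN93G at ZT 0, 4, 8 and 12, with 3 liver libraries per diet and time, for each member tested. Hspa1b and Dnajb1 lie to the right at ZT 12, at 1.22 and 0.60. Hspa1a, shown at ZT 12 alone and at 2.0, reached the minimum mean count there through the HFD libraries alone and is a description. Hsp90aa1 at ZT 0 has the widest bar and includes the library at 5.42 CPM.

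Over the 32 liver libraries the 8 chaperones were positively correlated, but the correlation over pairs of all genes was not computed. The Pearson correlation of log2 CPM, given as a description across libraries that share time and diet groups, had a median of 0.59 over the 28 pairs of the 8 chaperones and was above 0 in all of them. The closest pairs were Hspa1b with Dnajb1 (r = 0.90) and Hspa8 with Hsph1 (r = 0.89). Of deviations from the mean of each diet and time (30 libraries), the median was 0.35 and 2 pairs were below 0, with 0.86 for Hspa8 with Hsph1 and 0.68 for Hspa1b with Dnajb1. Cirbp went against all 8, from −0.17 with Hspa1a to −0.66 with Hsph1, and in the deviations it was at −0.76 with Hsph1 and above 0 with Hspd1 alone (0.23). Rbm3 was at −0.35 with Hspb1 and 0.53 with Hspd1, and at −0.01 with Cirbp, the other cold-inducible gene.

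Cirbp was set beside Hsph1, its most negative pair, in the libraries in which it was highest. Cirbp was at 29.3 CPM in AIN93G ZT 8 replicate 3, 26.7 CPM in AIN93G ZT 4 replicate 1 and 23.2 CPM in HFD ZT 8 replicate 2. Hsph1 was at 34.7, 30.9 and 48.8 CPM in these libraries, the lowest 3 values of all 32. Hepatocyte markers summed to 117510, 122800 and 124960 CPM and skeletal muscle markers to 5.62, 11.1 and 2.25 CPM in them, within the ranges of the other liver libraries.

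The genes outside the set with the most similar pattern over the 32 libraries, among 12000 with a mean count of at least 25, were other chaperone genes for several members. Hsph1 was closest to Chordc1 (r = 0.95), Cacybp (0.86) and Stip1 (0.86), Hspa8 to Dnaja1 (0.87), Cacybp (0.85) and Ahsa2 (0.84), and Hspa1b to Dnajb4 (0.79), Ccdc117 (0.78) and Dnaja1 (0.75). Hspa1a was closest to Dnajb4 (0.73), Ccdc117 (0.70) and Bag3 (0.70), Hspb1 to Ahsa1 (0.84), Hsp90ab1 (0.84) and Serpine2 (0.80), and Dnajb1 to P4ha1 (0.80), Cacybp (0.79) and Mroh6 (0.78). Hspd1 was closest to Sod2 (0.84), Adh5 (0.82) and Sord (0.80). Cirbp was closest to Cd82 (0.84), Ppp2r1a (0.79) and Aspg (0.78), and Rbm3 to Pdhb (0.86) and Mtss1 (0.84). Hsp90aa1 was closest to Gm12346 (0.90), Rpl12 (0.84) and Gm26917 (0.83) over all 32, of which Rpl12 and Gm26917 are low in HFD ZT 0 replicate 1, and to Stip1 (0.93), Cacybp (0.89) and Gm12346 (0.89) without that library.

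**Figure D5:**
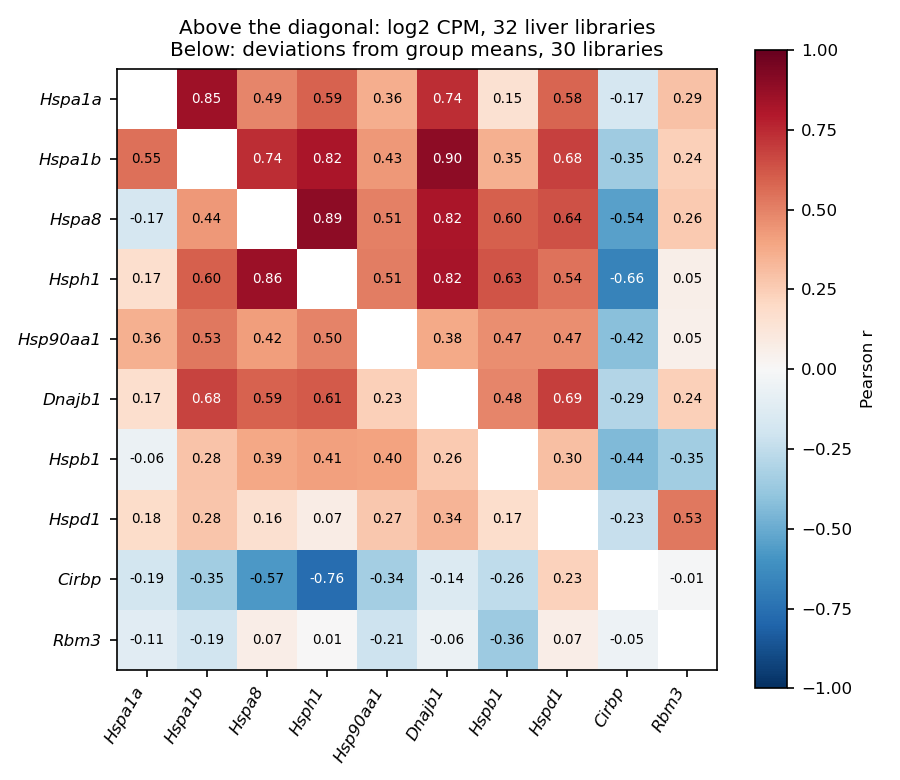
Pearson correlation between the 10 genes, of log2 CPM over 32 liver libraries above the diagonal and of deviations from the diet and time means over 30 libraries below it. The 8 chaperones are positive with each other above the diagonal, and the Cirbp column is negative with all of them, down to −0.66 with Hsph1.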

How the data were processed

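Tissue labelled as liver from 42 female mice, 3 for each diet and time, was sequenced as poly(A) RNA. A company sequenced the libraries and processed the reads. The submitters' processing notes name fastp, STAR, HTSeq 0.6.1, DESeq, STAR-Fusion and the build mm10, and their settings, including strand, are not given in the sources used here. The authors deposited raw read counts per gene, which were used as they stand, with groups from the labels. Libraries with Alb over 10000 CPM were kept as liver. CPM was computed from the total count of a library, 14592481 to 21368409 over all 42, so shallower libraries carry more counting error. Counting error weighed most on Hspa1a, with a mean of 23.5 counts.

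For each fit, genes whose counts averaged 25 or more in its libraries were tested with edgeR 4.0.16 (quasi-likelihood F test, TMM factors 0.903 to 1.08) in R 4.3.3, and p-values were adjusted by Benjamini and Hochberg over all genes tested, with a threshold of 0.05. Standard errors of log2 changes were obtained from the F statistic, and 95% intervals are the change ± 1.96 SE. DESeq2 1.42.0, library size scaling, other filters on low counts, a fit without ZT 12 and fits without each library were alternatives. The scripts were tested on simulated data. The p-values measure the spread between these libraries. Pairs of libraries of a group differed by far more than counting noise, so none was taken as a duplicate. Named genes were the members, genes of fixed lists around them, Alb and Adipoq, and the 3 genes most similar to each member, of which 1 is not reported here. The genes low in 1 library were named after their values were seen. The members and lists were chosen with earlier results of these data known. The 10 libraries with low Alb entered no test, and their values stand beside those of liver in the closing observations.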

Additional observations from a re-analysis of the deposited data

Results flagged for a closer look

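Within the 6 libraries of both diets at a time, 40 sets of values were examined for a lone library far from the rest, of which chance flags about 1 in 20. At ZT 4, Hspd1 was lowest at 429 CPM and Cirbp highest at 26.7 CPM, both in AIN93G replicate 1. At ZT 8, Hspa8 was highest at 1630 CPM in HFD replicate 1. At ZT 12, Hspb1 was highest at 35 CPM in HFD replicate 3, which also had high Arntl for that time.

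Rbm3 was at 75.6 CPM or more in the 10 libraries that did not pass as liver, above the highest liver library at 47.5 CPM. These libraries held adipocyte markers at 16102 to 25124 CPM in sum, and no test was made on them.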

How the results depend on the processing

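By replicate number, no paired analysis was possible because mouse codes in the labels give no replicate number and replicates were numbered in accession order. The first part of a code recurs at several times within a diet for some libraries, each from its own mouse. What it marks is not given, no fit used it as a block, and libraries that share it were treated as independent. Of the values for single genes under the alternatives, 1375 kept direction and side of the threshold, 65 lost and 28 gained a call, and 12 reversed. The reversed log2 values were −0.0052 for Hspd1 at ZT 8 against ZT 0 with library size scaling, 0.0029 for Rbm3 in dark against light with every gene that had a count, −0.073 for Dnajb1 by diet without ZT 12 and, leaving out single libraries, −0.081 to 0.230 for Cirbp at ZT 8 against ZT 0, −0.045 to 0.043 for Rbm3 in dark against light and −0.096 to 0.0075 for Rbm3 by diet. Counts of genes called moved more. By time over ZT 0 to ZT 12 (800 called) they were 1474 with DESeq2, 1302 with every counted gene, 1313 without ZT 12 and 2132 without the 3 libraries at ZT 12 with high Arntl. For the HFD over the day (325) they were 1547, 2333, 639 and 1079 in the same order, the last without the 1 such library on the HFD. By diet (18) they were 80, 86, 85 and 5, in the same order as by time. DESeq2 and every counted gene gave 1078 and 1262 in dark against light (687), 8 and 78 in the interaction (0), 106 and 453 by diet at ZT 0 (9), 28 and 182 at ZT 4 (0) and 61 and 252 at ZT 8 (0), and DESeq2 gave 5 at ZT 12 (0). The cosine (1023) gave 1693 with DESeq2, 1710 without the high-Arntl library and 640 with all liver libraries in the fit, which gave 0 by diet at ZT 0 and 2 at ZT 8, and a minimum of 25 counts in every library gave 1 at ZT 4. Of the members, every counted gene gave 1 called in the interaction and 8 over the day on the HFD (5 with the minimum), and DESeq2 1 by diet at ZT 12, Hspa1a, which reached the minimum count there through the HFD libraries alone. Leaving out 1 library gave 518 (HFD ZT 0 replicate 3) to 1067 (HFD ZT 12 replicate 3) genes by time, 2 (AIN93G ZT 12 replicate 3) to 124 (AIN93G ZT 12 replicate 1) by diet, 170 (HFD ZT 0 replicate 2) to 1079 (HFD ZT 12 replicate 3) over the day on the HFD, 405 (HFD ZT 20 replicate 2) to 907 in dark against light, 672 to 1710 for the cosine, 0 to 3 for the interaction, 1 to 32 by diet at ZT 0, 0 to 3 at ZT 4 and 0 to 2 at ZT 8. It gave 3 to 6 members at ZT 8 against ZT 0, 2 (HFD ZT 4 replicate 1) to 6 (HFD ZT 0 replicate 1) over the day on the HFD, 4 to 6 in dark against light, 4 to 8 for the cosine, 4 to 5 by time and 0 by diet. The median correlation among chaperones was 0.59, and 0.35 in deviations from the group means. The cause of these shifts was not tested. With 3 libraries a group, the diet at single times had few residual degrees of freedom, and Hspa1a had too few counts for most tests.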

Other observations

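In the 10 libraries with low Alb, Rbm3 had a median of 117 CPM, Cirbp of 34.1 CPM and Hspb1 of 58.9 CPM, against 26.8, 14.7 and 14.8 CPM over the 32 liver libraries. Hspa8 had a median of 1762 CPM in the 10 and 1356 CPM in liver, and Hspd1 of 452 and 526 CPM. Hspa1a was at 2.64 to 8.99 CPM in the 10 and at 0 to 6.57 CPM in liver.

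The 6 AIN93G libraries with low Alb at ZT 16 and ZT 20 had Hspa8 at 1711 to 2977 CPM and Hsph1 at 123 to 182 CPM. The 4 of both diets at ZT 24 had Hspa8 at 800 to 1622 CPM and Hsph1 at 48.5 to 84.7 CPM. No test was made within these libraries.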
